A study of Homo sapiens with 24 samples.

Results

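The genes described here encode the enzymes that make fatty acids from acetyl-CoA and then lengthen and desaturate them: ACLY, ACSS2, ME1, ACACA, FASN, ELOVL5, ELOVL6, SCD, FADS1 and FADS2. They were taken by symbol from the deposited table, which held all 10 among its 34618 genes. The RNA came from HepG2, a line of human hepatocellular carcinoma cells, which lentivirus and puromycin selection (1 ug/mL) turned into 3 stable lines. The shSETD2 line carried a hairpin against SETD2, which encodes the enzyme that trimethylates lysine 36 of histone H3, the shMETTL14 line a hairpin against METTL14, which encodes a subunit of the N6-methyladenosine RNA methyltransferase, and the shCtrl line a non-specific hairpin. Every line was grown and selected in the same way, and each was collected before (0 h) and 1, 3 and 6 h after actinomycin D at 5 ug/mL, an inhibitor of transcription, with 2 libraries for each of the 12 groups. The labels name 1 line per target, so an effect of a target and of its line cannot be told apart.

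In hepatocytes, cytosolic acetyl-CoA comes from citrate through ACLY and from acetate through ACSS2, and ME1 supplies NADPH. ACACA carboxylates acetyl-CoA to malonyl-CoA, from which FASN builds palmitate. ELOVL6 lengthens saturated and monounsaturated fatty acids, ELOVL5 mainly polyunsaturated ones. SCD places the first double bond in saturated fatty acids, and FADS1 and FADS2 add further double bonds to polyunsaturated ones. Transcription of many of these genes is known to be driven by the sterol regulatory element binding protein encoded by SREBF1, together with the factor NF-Y, and by the carbohydrate response factor encoded by MLXIPL.

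The promoters of the genes with the 3 largest rises in untreated shSETD2 cells are shown, to set the letters near their starts beside the values (RefSeq, build GRCh38.p14; the 250 bases before the annotated start). Capitals mark the CCAAT box (CCAAT or ATTGG) and the GC box (GGGCGG or CCGCCC), on either strand and with overlapping matches kept. ACSS2 has 2 annotated starts.
ACSS2 (chr20:34874739-34874988, plus strand): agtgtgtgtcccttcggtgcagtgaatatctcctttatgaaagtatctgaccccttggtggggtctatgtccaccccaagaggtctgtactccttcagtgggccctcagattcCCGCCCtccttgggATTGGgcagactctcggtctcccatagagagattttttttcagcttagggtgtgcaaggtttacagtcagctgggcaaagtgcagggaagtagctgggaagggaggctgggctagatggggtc
ACSS2 (chr20:34876362-34876611, plus strand): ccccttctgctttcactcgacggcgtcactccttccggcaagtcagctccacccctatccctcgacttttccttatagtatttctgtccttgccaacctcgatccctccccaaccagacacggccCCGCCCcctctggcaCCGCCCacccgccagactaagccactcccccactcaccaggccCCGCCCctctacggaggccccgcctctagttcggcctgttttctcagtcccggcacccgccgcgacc
ELOVL6 (chr4:110198616-110198865, minus strand): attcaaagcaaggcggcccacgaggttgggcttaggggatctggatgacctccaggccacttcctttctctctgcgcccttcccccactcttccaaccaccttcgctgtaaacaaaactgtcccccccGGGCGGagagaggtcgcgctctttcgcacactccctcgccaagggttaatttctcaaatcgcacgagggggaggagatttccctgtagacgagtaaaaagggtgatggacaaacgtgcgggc
SCD (chr10:100346983-100347232, plus strand): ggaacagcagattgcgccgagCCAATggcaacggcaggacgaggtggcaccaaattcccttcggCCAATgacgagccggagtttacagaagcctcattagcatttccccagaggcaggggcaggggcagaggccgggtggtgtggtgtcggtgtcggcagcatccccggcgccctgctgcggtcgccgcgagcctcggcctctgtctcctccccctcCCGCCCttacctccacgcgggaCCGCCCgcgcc
Of the 10 genes, all but FASN matched the RefSeq promoter table, with 14 starts. The 2 windows of ACLY overlap by most of their length and those of FADS2 in part, so some boxes are counted in both. A CCAAT box stood in 7 of these 14 windows, from 5 genes, against 11240 of all 35116 promoters. The GC box stood in 11 of 14, against 42.6% of all. The E-box CACGTG stood in 1 of 14 (ELOVL5), against 6.3% of all, and the sterol regulatory element letters TCACNCCAC (GTGGNGTGA on the other strand) in 0 of 14, against 0.9% of all. SCD held 2 CCAAT boxes and ACSS2 1, while ELOVL6 held none in this window.

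Library totals ran from 18.3 to 31.4 M counts. At 0 h SETD2 stood at 66.2% of shCtrl in the shSETD2 line and METTL14 at 48.8% of shCtrl in the shMETTL14 line. METTL14 was also higher in the shSETD2 line, at 129% of shCtrl (edgeR adjusted p = 0.0026), while SETD2 stood at 96.2% of shCtrl in the shMETTL14 line (adjusted p = 0.557). Of 8 hepatocyte and hepatoma markers all were detected in every library. The summed level of the 8 markers at 0 h was 92700 to 93600 CPM (counts relative to the library total, TMM-scaled) in the shSETD2 libraries and 56400 to 56500 CPM in the shMETTL14 libraries, against 49000 to 49200 CPM in shCtrl libraries. The sum was thus above shCtrl in shSETD2 cells, as the members were. In shMETTL14 cells it was also above shCtrl, while 7 members were lower and 1 was higher. APOB had the highest median level of the 8 markers (46000 CPM over all libraries), and the markers were not compared singly. Markers of other cell types were low but not absent: the sums at 0 h for 3 adipocyte markers were 1.56 to 2.22 CPM in shSETD2 and 0.374 to 0.564 CPM in shMETTL14 libraries, against 0.198 to 0.345 CPM in shCtrl libraries. For 5 fibroblast markers they were 9.06 to 9.15 CPM in shSETD2 and 7.12 to 7.33 CPM in shMETTL14, against 4.17 to 4.94 CPM in shCtrl libraries, mostly COL1A1. For 3 endothelial and stellate markers, mostly PDGFRB, they were 10.4 to 10.9 CPM in shSETD2 and 22.5 to 25 CPM in shMETTL14, against 8.49 to 9.69 CPM in shCtrl libraries. The sums of 5 blood and immune markers, CD14 among them, overlapped between shSETD2 (1.97 to 2.68 CPM) and shCtrl libraries (2.21 to 2.45 CPM) and were 2.65 to 2.71 CPM in shMETTL14 libraries. DCN (fibroblasts), PTPRC (leukocytes) and LEP (adipocytes) were at 0 in all 24 libraries. The part of these markers in the results was not tested. In bulk libraries fewer cells of a type and less RNA per cell cannot be told apart. The 2 shSETD2 libraries at 6 h stood apart from each other, with a chi-square per gene of 16.9 against 1.35 to 5.32 in the other pairs.

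Of the members, 9 passed the filter on low counts and ME1 did not. ME1 had 1 count in each of 3 shSETD2 libraries and 0 in the other 21, and it was not tested. Over the range of totals of all 24 libraries, a count of 0 allows up to 0.0955 to 0.164 CPM without TMM scaling. On the length-scaled RPKM values of the authors, SCD was the most abundant member in every line, at 493 RPKM in shSETD2 and 216 RPKM in shMETTL14 cells, against 223 RPKM in shCtrl cells at 0 h. FASN, ACLY and ELOVL5 followed in that order in all lines. At the low end in shCtrl cells stood ACSS2 with 6.76 ± 0.438 RPKM and ELOVL6 with 4.40 ± 0.0388 RPKM (SD, n = 2). FADS2 and ELOVL6 were the lowest of the 9 in shSETD2 cells, with 16.9 ± 0.215 and 12.8 ± 0.522 RPKM.

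The first comparison asks how the untreated knockdown lines differed from shCtrl. In shSETD2 cells all 9 tested members were higher than in shCtrl, with rises between 1.18-fold (ACACA) and 5.21-fold (ACSS2). The median log2 fold change of the 9 was 0.84, against 0.017 over all 14887 genes tested. Of all genes 40.6% were called in this comparison and 21.6% were called higher. For each of the 9 both shSETD2 libraries lay above both shCtrl libraries. How many of all genes were separated in this way was not counted, so this is a description only. When libraries were scaled by their total alone, 8 of 9 members were called, all higher, and ACACA was not. That scaling shifted the median of all genes to -0.14 and left 28.3% of all called genes higher, against 53.3% with TMM.

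Among the enzymes that supply acetyl-CoA, ACSS2 had the largest difference. ACSS2 (chromosome 20, 33459949 to 33515769, GRCh37) stood at 165 and 166 CPM in shSETD2 libraries and at 62.8 and 62.2 CPM in shMETTL14 libraries, against 30.4 and 33.2 CPM in shCtrl libraries. The 3 lines did not overlap, which is a description only, and both knockdown lines lay above shCtrl. The rise was 5.21-fold in shSETD2 cells (log2 fold change 2.38, SE 0.0575, edgeR adjusted p = 7.95e-19) and 1.97-fold in shMETTL14 cells (0.98, SE 0.0579, adjusted p = 4.55e-12). ACLY (chromosome 17, 40023161 to 40086795) had 562 and 565 CPM in shSETD2 libraries and 289 and 285 CPM in shMETTL14 libraries, against 329 and 333 CPM in shCtrl libraries. It was 1.70-fold higher in shSETD2 cells (adjusted p = 2.87e-11) and fell to 0.867 of shCtrl in shMETTL14 cells (adjusted p = 0.00194). ACSS2 overlaps 715 bases of GGT7 on the opposite strand, and the sources used here do not say whether the counting used strand.

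**Figure D1:**
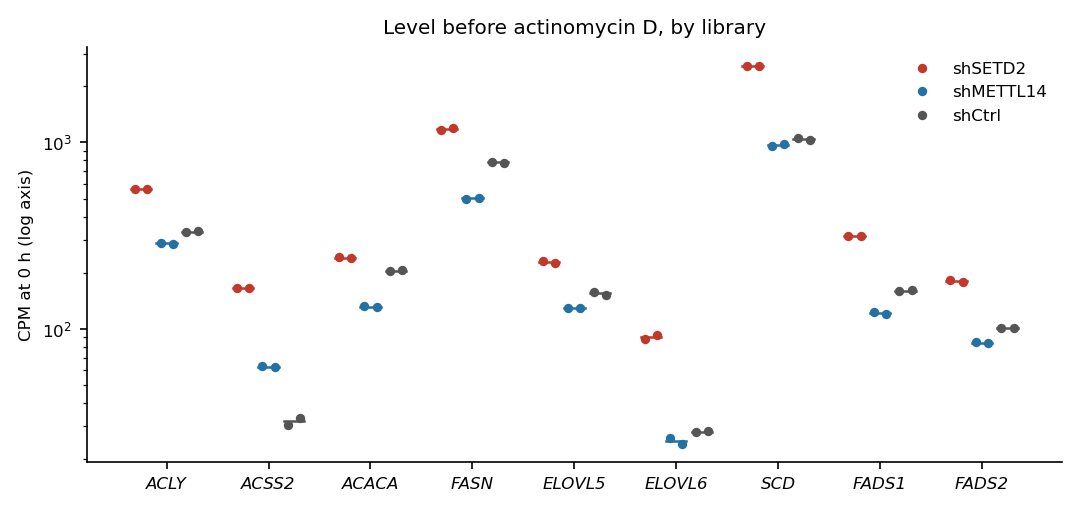
Level of the 9 tested members before actinomycin D (CPM, log axis), with a point per library and a bar at the mean of each line. All shSETD2 points lie above those of the other lines, and ACSS2 is the one member for which the shMETTL14 points (62.2 and 62.8 CPM) lie above shCtrl (30.4 and 33.2 CPM).

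The carboxylation and synthesis step moved in opposite directions in the 2 knockdown lines. FASN (chromosome 17, 80036214 to 80056208) stood at 1168 and 1197 CPM in shSETD2 libraries and at 498 and 504 CPM in shMETTL14 libraries, against 785 and 780 CPM in shCtrl libraries. It was 1.51-fold higher in shSETD2 cells (log2 fold change 0.60, SE 0.0936, edgeR adjusted p = 4.86e-05) and fell to 0.641 of shCtrl in shMETTL14 cells (-0.64, SE 0.0940, adjusted p = 1.72e-05). ACACA (chromosome 17, 35441923 to 35766909) had 243 and 239 CPM in shSETD2 libraries and 132 and 131 CPM in shMETTL14 libraries, against 203 and 207 CPM in shCtrl libraries. Its fall to 0.641 of shCtrl in shMETTL14 cells (adjusted p = 1.82e-10) was as large as that of FASN. The rise of ACACA in shSETD2 cells was the smallest of the members (log2 fold change 0.23, 95% interval 0.14 to 0.33, adjusted p = 0.000334). Leaving out shCtrl replicate 1 at 0 h, scaling by library size alone and limma on RPKM each ended that call (highest adjusted p = 0.228). The median of all genes moved down as well in these settings, from 0.017 to between -0.138 and -0.07.

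Both elongases rose in shSETD2 cells. ELOVL6 (chromosome 4, 110967002 to 111120355) stood at 88.0 and 93.0 CPM in shSETD2 libraries and at 25.8 and 24.2 CPM in shMETTL14 libraries, against 27.9 and 28.1 CPM in shCtrl libraries. It was 3.23-fold higher in shSETD2 cells (log2 fold change 1.69, SE 0.0807, edgeR adjusted p = 8.6e-14). In shMETTL14 cells both libraries lay below both of shCtrl, but how many of all genes were separated in this way was not counted. ELOVL6 did not pass the test there (log2 fold change -0.16, 95% interval -0.34 to 0.014, adjusted p = 0.122). It was called lower in 5 of 14 alternatives (lowest adjusted p = 0.01). Its value was -0.31 without shMETTL14 replicate 1 at 0 h and -0.27 without shCtrl replicate 1 at 0 h. The median of all genes also moved in these 2 settings, from -0.006 to -0.111 and -0.103. ELOVL5 (chromosome 6, 53132196 to 53213947) had 230 and 224 CPM in shSETD2 libraries and 129 and 129 CPM in shMETTL14 libraries, against 158 and 153 CPM in shCtrl libraries. Its rise in shSETD2 cells was 1.46-fold (adjusted p = 8.65e-07), and in shMETTL14 cells it fell to 0.832 of shCtrl (adjusted p = 0.00285).

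The desaturases rose together in shSETD2 cells. SCD (chromosome 10, 102106881 to 102124591) stood at 2576 and 2565 CPM in shSETD2 libraries and at 960 and 983 CPM in shMETTL14 libraries, against 1057 and 1033 CPM in shCtrl libraries. It was 2.46-fold higher in shSETD2 cells (log2 fold change 1.30, SE 0.0339, edgeR adjusted p = 3.11e-18). In shMETTL14 cells its log2 fold change was -0.11 (95% interval -0.18 to -0.036, adjusted p = 0.0126), a call lost with library size alone, with a stricter filter on low counts and with limma on RPKM (highest adjusted p = 0.226). FADS1 (chromosome 11, 61567099 to 61596790) had 315 and 315 CPM in shSETD2 libraries and 123 and 119 CPM in shMETTL14 libraries, against 159 and 161 CPM in shCtrl libraries. It was 1.97-fold higher in shSETD2 cells (adjusted p = 4.01e-15) and fell to 0.757 of shCtrl in shMETTL14 cells (adjusted p = 2e-08). FADS2 (chromosome 11, 61560452 to 61634826) had 183 and 179 CPM in shSETD2 libraries and 84.7 and 83.6 CPM in shMETTL14 libraries, against 101 and 101 CPM in shCtrl libraries. The rise of FADS2 was 1.79-fold (adjusted p = 2.08e-09) and in shMETTL14 cells it fell to 0.833 of shCtrl (adjusted p = 0.00462), a call lost with limma on log2(RPKM + 1) (adjusted p = 0.0521). The FADS2 locus contains FADS1 on the opposite strand (29692 bases shared) and FEN1 on the same strand, so the counts of FADS1 and FADS2 are uncertain.

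Across shMETTL14 cells, 1 member was higher than in shCtrl (ACSS2), 7 were lower and ELOVL6 was not called. Of all genes 48.1% were called in this comparison, 23.1% higher and 25.1% lower. The median log2 fold change of the members was -0.26, against -0.006 over all genes. With a line-to-line comparison, all 9 members were higher in shSETD2 than in shMETTL14 cells, with log2 fold changes between 0.81 (ELOVL5) and 1.85 (ELOVL6) and edgeR adjusted p of at most 3.52e-09. Of all genes 52.2% were called there, and 29.2% were higher in shSETD2. These comparisons share libraries, so they are not independent of each other. Library size alone left 28.7% of all called genes higher in shSETD2 over shMETTL14, against 55.9% with TMM, and the 9 members stayed called.

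**Figure D2:**
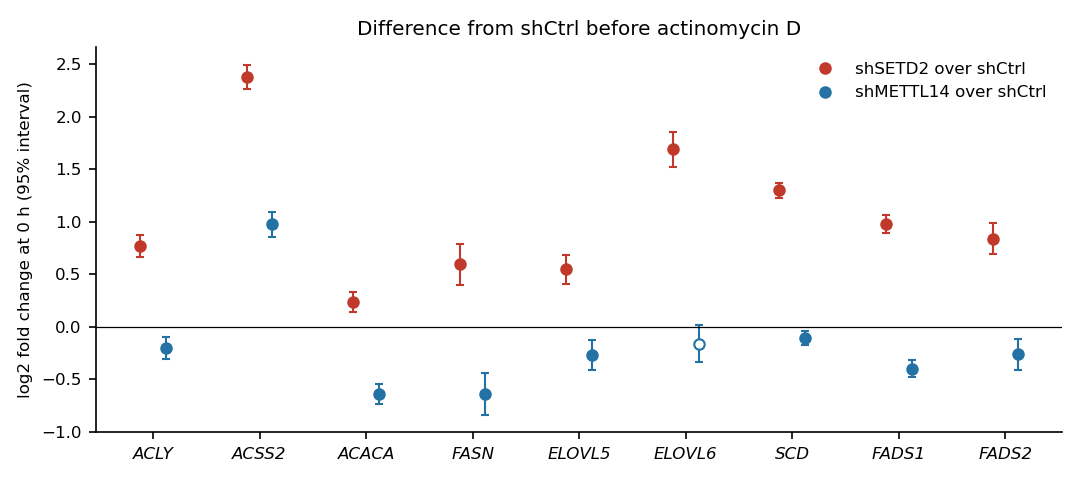
Log2 fold change over shCtrl before actinomycin D for shSETD2 and shMETTL14 cells, with 95% intervals derived from the edgeR test (2 libraries per line). The open point was not called. The shSETD2 values run from 0.23 to 2.38, and the shMETTL14 values lie below 0 for every member except ACSS2 (0.98).

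The other genes of the pathway were taken from a list of 48 symbols, of which 45 were in the table and 40 were tested. In untreated shSETD2 cells 19 rose and 9 fell, with a median log2 fold change of 0.18, and in shMETTL14 cells 7 rose and 17 fell, with a median of -0.12. Over all genes 21.6% were called higher and 18.9% lower in shSETD2 cells, and 23.1% and 25.1% in shMETTL14 cells. SREBF1 stood at 60.2 ± 1.65 CPM in shSETD2 and 39.9 ± 1.61 CPM in shMETTL14 cells, against 61.8 ± 0.717 CPM in shCtrl cells (SD, n = 2). It was 0.974 of shCtrl in shSETD2 cells (95% interval of the log2 fold change -0.26 to 0.18, edgeR adjusted p = 0.804; called higher, at a log2 fold change of 0.13, after removal of a trend with GC content, adjusted p = 0.0243) and fell to 0.645 of shCtrl in shMETTL14 cells (adjusted p = 6.57e-05). SREBF1 shares 1055 bases with RAI1 on the opposite strand. MLXIPL had 65.3 ± 0.793 CPM in shSETD2 and 48.8 ± 1.11 CPM in shMETTL14 cells, against 57.7 ± 0.50 CPM in shCtrl cells. In shSETD2 cells it was not called (1.13-fold, log2 fold change 0.18, adjusted p = 0.116), but 3 of 14 alternatives called it higher: the replicate block (adjusted p = 0.0411), only the libraries compared (adjusted p = 0.00081) and removal of a trend with GC content (log2 fold change 0.36, adjusted p = 1.73e-09). It fell to 0.847 of shCtrl in shMETTL14 cells (adjusted p = 0.0319), a call lost in 4 of 14 alternatives (highest adjusted p = 0.142).

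Among the suppliers of acetyl-CoA, citrate and NADPH, 7 of 9 rose and 1 fell in shSETD2 cells, and 1 rose and 6 fell in shMETTL14 cells. IDH1, the cytosolic NADPH-producing isocitrate dehydrogenase, rose 1.64-fold in shSETD2 cells (edgeR adjusted p = 5.15e-12) and fell to 0.667 of shCtrl in shMETTL14 cells (adjusted p = 1.98e-10). CS, encoding citrate synthase, rose 1.17-fold in shSETD2 cells (adjusted p = 9.13e-05) and fell to 0.589 of shCtrl in shMETTL14 cells, with 137 ± 2.27 CPM against 233 ± 1.92 CPM in shCtrl cells. Of 13 tested regulators 3 rose and 3 fell in shSETD2 cells, and 2 rose and 6 fell in shMETTL14 cells. The shSETD2 counts lie near the shares over all genes, 21.6% higher and 18.9% lower; over all genes in shMETTL14 cells the shares were 23.1% and 25.1%. MID1IP1, which acts on acetyl-CoA carboxylase, rose 1.72-fold in shSETD2 cells and fell to 0.788 of shCtrl in shMETTL14 cells (adjusted p = 0.00154). MBTPS1, a protease that releases the sterol factors, fell to 0.807 of shCtrl in shSETD2 cells. INSIG2, which holds these factors in the endoplasmic reticulum, rose in both lines, 1.68-fold in shSETD2 cells (adjusted p = 0.000101) and 1.75-fold in shMETTL14 cells (adjusted p = 3.33e-05). INSIG1 averaged 0.0884 CPM over all libraries and was not tested.

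Enzymes of the later steps were mixed. ACACB, the mitochondrial acetyl-CoA carboxylase, rose in both lines, 2.11-fold in shSETD2 cells (edgeR adjusted p = 7.97e-10) and 1.77-fold in shMETTL14 cells (adjusted p = 6.29e-08). HSD17B12, the ketoacyl reductase of elongation, rose 1.87-fold in shSETD2 cells, and ELOVL2, an elongase of polyunsaturated fatty acids, 1.51-fold. FADS3, the third gene of the FADS family, fell in both, to 0.554 of shCtrl in shSETD2 cells (adjusted p = 4.28e-06) and to 0.789 in shMETTL14 cells (adjusted p = 0.0149, lost with limma on RPKM). OLAH, a thioesterase, also passed the test in shSETD2 cells (adjusted p = 8.98e-05) at very low levels, 0.0714 ± 0.0427 CPM against 0.589 ± 0.00464 CPM in shCtrl cells. HLCS, the biotin ligase of the carboxylases, fell in both lines, to 0.821 of shCtrl in shSETD2 cells (adjusted p = 0.00346) and to 0.714 in shMETTL14 cells. The dehydratase gene PTPLA rose 1.21-fold in shSETD2 cells (adjusted p = 0.0204) and fell to 0.715 of shCtrl in shMETTL14 cells. ELOVL7, another elongase, rose 1.61-fold in shSETD2 and 1.45-fold in shMETTL14 cells, and CYB5R3, the cytochrome b5 reductase, 1.28-fold and 1.29-fold in the same lines. The call of ELOVL7 in shMETTL14 cells was lost without shMETTL14 replicate 2 at 0 h (adjusted p = 0.0699).

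**Figure D3:**
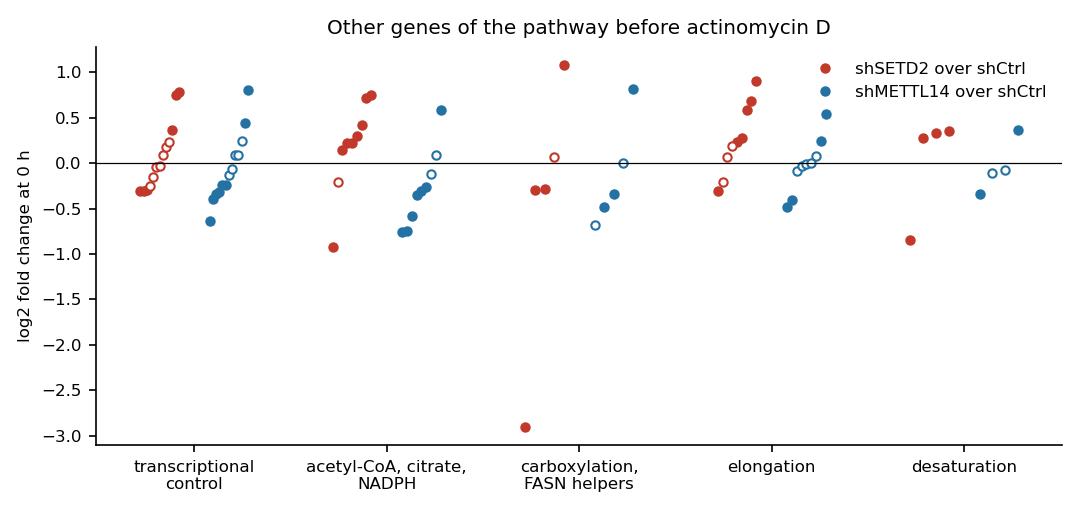
Log2 fold change over shCtrl at 0 h for the 40 tested genes of the wider pathway, grouped by role, with 1 point per gene; filled points were called. In shSETD2 cells 19 are called higher and 9 lower, against 21.6% and 18.9% of all genes. In shMETTL14 cells 7 are called higher and 17 lower, against 23.1% and 25.1% of all genes. The lowest point is OLAH at -2.90.

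The second comparison asks how the RNA changed once transcription was blocked. The change is given as the slope of log2 CPM on hours, relative to the rest of the RNA in a library, since the table holds 0 spike-in entries. A positive slope therefore means that the gene's share of the library grew. In shSETD2 cells 8 members rose in this sense and 1 fell, in shMETTL14 cells 8 rose and 1 fell, and in shCtrl cells all 9 rose. Of all genes 70.4%, 73.1% and 71.1% were called in shSETD2, shMETTL14 and shCtrl. Higher slopes were called for 34.2%, 38.2% and 37.8% of all genes, and lower ones for 36.2%, 34.8% and 33.2%. The median slopes of the members were 0.108 log2 per h in shSETD2, 0.104 in shMETTL14 and 0.121 in shCtrl cells, against -0.001, 0.011 and 0.013 over all genes. With library size alone 8 members were called in shSETD2 (7 higher), 6 in shMETTL14 (5 higher) and 7 in shCtrl (all higher), and the share of called genes that were higher was 31.9%, 29.1% and 33.1%, against 48.6%, 52.3% and 53.2% with TMM.

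SCD, FADS1 and FADS2 had the steepest slopes in shCtrl cells, at 0.153, 0.160 and 0.162 log2 per h. SCD climbed in each line over 1, 3 and 6 h. It reached 115%, 152% and 178% of its 0 h mean in shSETD2 cells, 118%, 145% and 187% in shMETTL14 cells, and 122%, 169% and 191% in shCtrl cells. The replicates of SCD differed by far less than these steps, for example 4567 ± 82.2 CPM at 6 h in shSETD2 cells. ACSS2 stood at 179% of its 0 h mean at 6 h in shSETD2 cells and at 175% in shMETTL14 cells, against 190% in shCtrl cells. FASN was less certain at 6 h in shSETD2 cells, where its replicates had 2196 and 1603 CPM, and so was FADS2 with 385 and 312 CPM. ACACA, ACLY and ELOVL5 had slopes between 0.039 (ELOVL5, shSETD2) and 0.121 (ACACA, shCtrl). The slope of ELOVL5 in shSETD2 cells turned to -0.010 with library size alone and with limma on RPKM (lowest adjusted p = 0.402), and its call was lost without shSETD2 replicate 2 at 6 h (adjusted p = 0.0891).

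ELOVL6 was the one member whose RNA fell relative to the rest in the knockdown lines. In shSETD2 cells its 2 libraries had 88.0 and 93.0 CPM at 0 h, 85.3 and 96.2 CPM at 1 h, 91.2 and 92.7 CPM at 3 h, and 70.5 and 86.6 CPM at 6 h. In shMETTL14 cells they had 25.8 and 24.2 CPM at 0 h, 25.9 and 25.8 CPM at 1 h, 23.8 and 25.2 CPM at 3 h, and 18.04 and 19.07 CPM at 6 h. In shCtrl cells they had 27.9 and 28.1 CPM at 0 h, 35.9 and 35.6 CPM at 1 h, 43.5 and 44.2 CPM at 3 h, and 33.3 and 37.5 CPM at 6 h. The knockdown lines were thus flat for 3 h and lower at 6 h, whereas in shCtrl cells ELOVL6 climbed for 3 h and stood lower again at 6 h. The slopes were -0.034 log2 per h in shSETD2 (SE 0.0120, edgeR adjusted p = 0.0146) and -0.076 in shMETTL14 (SE 0.0146, adjusted p = 6.36e-05), against 0.046 in shCtrl cells (SE 0.0133, adjusted p = 0.0036). The shSETD2 slope turned to 0.007 without the 6 h libraries and to 0.032, called with a higher slope, after removal of a trend with GC content (adjusted p = 0.000173), and lost its call in 6 of 21 alternatives. The shCtrl slope turned to between -0.013 and -0.010 with library size alone and with limma on RPKM, none of them called. The shMETTL14 slope lost its call without the 6 h libraries (adjusted p = 0.248).

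**Figure D4:**
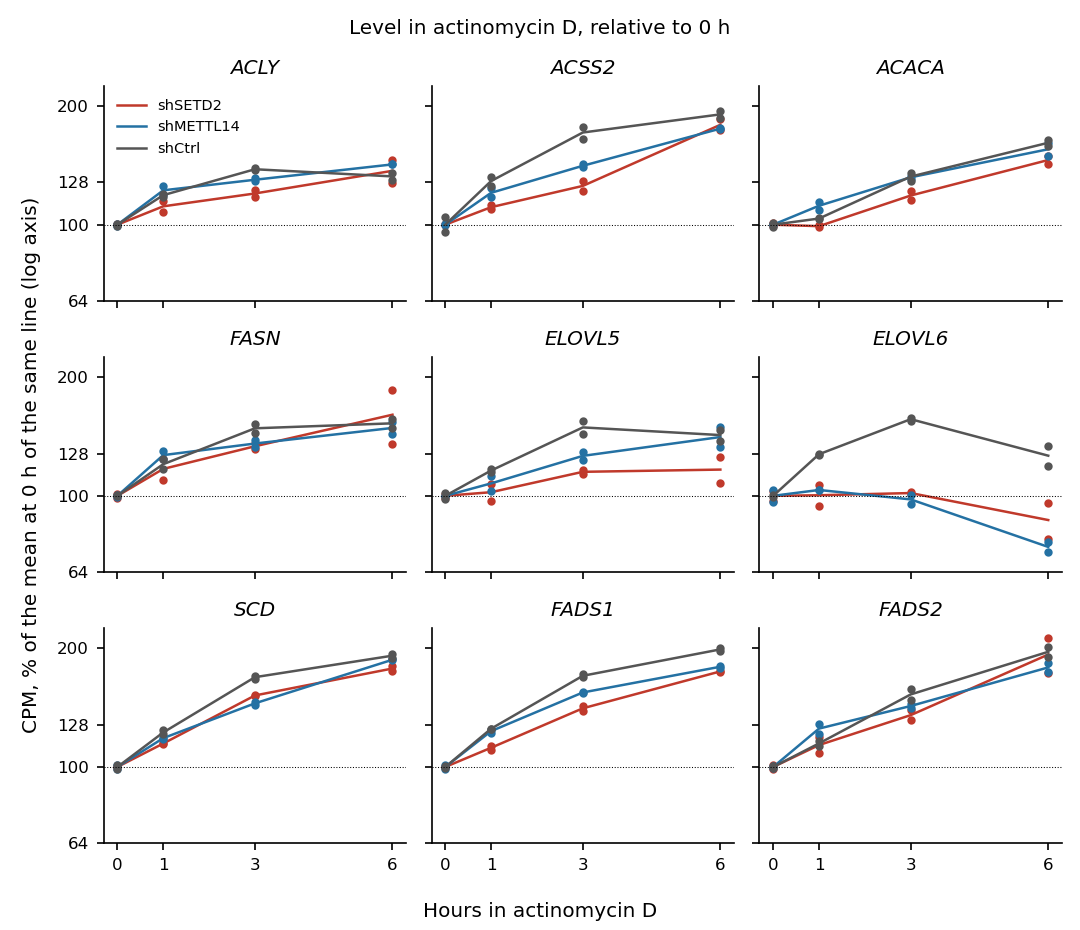
Level of each member at 0, 1, 3 and 6 h of actinomycin D as a percentage of the mean at 0 h of the same line (log axis), with a point per library and a line through the means. ELOVL6 is at 86.8% in shSETD2 and 74.2% in shMETTL14 cells at 6 h, against 126% in shCtrl cells, while the other members lie above 100% at 6 h in every line.

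The third comparison tests whether these slopes differed between a knockdown line and shCtrl. ELOVL6 was the only member called, and its slope was lower than in shCtrl in both lines. The difference was -0.080 log2 per h in shSETD2 cells (95% interval -0.117 to -0.043, edgeR adjusted p = 0.00739) and -0.123 in shMETTL14 cells (95% interval -0.164 to -0.082, adjusted p = 0.000363). Of all genes 7.94% were called in shSETD2 and 5.21% in shMETTL14 cells, with 6.45% and 3.35% of all lower and 1.49% and 1.85% higher. The shMETTL14 call held in all 29 alternatives run for it. The shSETD2 call was lost in 5 of 29: with only the 2 lines compared in the fit, without the 1 h libraries, without either shCtrl library at 0 h and without shCtrl replicate 2 at 6 h (highest adjusted p = 0.148). Without shCtrl replicate 1 or 2 at 0 h the shSETD2 difference was -0.047 and -0.049, while the median of all genes moved from -0.013 to 0.019 and 0.018. Both differences use the same shCtrl libraries. In the authors' deposited table of half-lives, ELOVL6 was the 1 member among 7772 genes listed, with 5.89 h in shSETD2 and 4.91 h in shMETTL14, against 50.2 h in shCtrl. The 50.2 h lies far beyond the 6 h sampled, and ELOVL6 in shCtrl had 4.40 RPKM at 0 h and 4.37 RPKM at 6 h. Shorter half-lives were listed for 70.0% of genes in shSETD2, 57.0% in shMETTL14 and 95.4% in shCtrl. These half-lives are another measure than the slopes above. The medians of that table were 4.13 h in shSETD2 and 4.31 h in shMETTL14, against 6.02 h in shCtrl.

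For the other 8 members the slope difference was not called. In shSETD2 cells the values ran from -0.044 (ELOVL5, 95% interval -0.075 to -0.013, edgeR adjusted p = 0.0708) to 0.011 log2 per h (FASN, -0.031 to 0.054). FADS1 had -0.026 in both lines, with 95% intervals of -0.043 to -0.008 in shSETD2 (adjusted p = 0.0624) and -0.044 to -0.008 in shMETTL14 (adjusted p = 0.0844). In shMETTL14 cells the values ran from -0.033 (FADS2, -0.066 to -0.001, adjusted p = 0.285) to 0.012 (ACLY, -0.011 to 0.035). These results depended on the last time point. Over 0 to 3 h, without the 6 h libraries, 6 members were called in shSETD2 cells and 5 in shMETTL14 cells, all with a lower slope than in shCtrl. Of the 14846 genes tested in that setting 6.96% were called in shSETD2 and 5.4% in shMETTL14 cells. Of the called genes only 10.8% and 27.9% had a higher slope, so most of them shared the lower direction. The median of all genes there was -0.024 in shSETD2 and -0.007 in shMETTL14 cells. The values over 0 to 3 h were -0.144 (ACSS2), -0.121 (ELOVL5), -0.197 (ELOVL6), -0.086 (FADS1), -0.066 (ACLY) and -0.048 log2 per h (SCD) in shSETD2 cells. In shMETTL14 cells they were -0.232 (ELOVL6), -0.105 (ACSS2), -0.090 (ELOVL5), -0.088 (SCD) and -0.061 log2 per h (FADS1). At 3 h ACSS2, for example, stood at 125% of its 0 h mean in shSETD2 and 141% in shMETTL14, against 171% in shCtrl cells. The scaling also bears on these differences: 18.8% of the genes called in shSETD2 were higher with TMM and 61.2% with RLE factors, and in shMETTL14 35.6% with TMM and 48.6% with RLE factors. Without shSETD2 replicate 2 at 6 h, 5 members were called in shSETD2 cells, FASN and ACLY higher and ELOVL5, ELOVL6 and FADS1 lower, while the share called over all genes grew to 25.1% as well. Without shCtrl replicate 1 at 0 h the value of ACLY in shSETD2 cells was 0.043, while the median of all genes moved from -0.013 to 0.019.

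**Figure D5:**
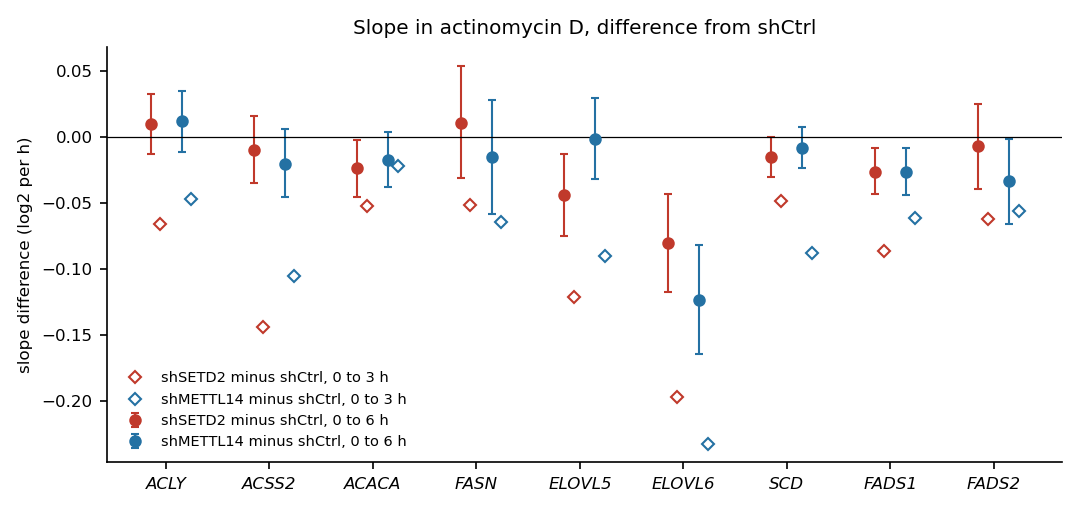
Slope in actinomycin D minus the slope in shCtrl (log2 per h), for shSETD2 and shMETTL14 cells. Filled points with 95% intervals use all 4 times, and open diamonds use 0, 1 and 3 h; ELOVL6 is lowest in both lines, at -0.080 and -0.123 over all times.

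In the wider pathway 28 of 40 genes rose relative to the rest of the RNA in each line, while 7 fell in shSETD2 and 8 in shMETTL14, against 5 in shCtrl cells. Over all genes 34.2%, 38.2% and 37.8% rose in shSETD2, shMETTL14 and shCtrl cells. The shares that fell were 36.2%, 34.8% and 33.2%. A slope difference from shCtrl was called for 1 of the 40 genes in shSETD2 and for 2 in shMETTL14 cells. Over all genes the shares called were 7.94% and 5.21%. CYB5B, a cytochrome b5 of the outer mitochondrial membrane, had a lower slope in both lines, by -0.057 log2 per h in shSETD2 (edgeR adjusted p = 0.000477) and -0.040 in shMETTL14 cells (adjusted p = 0.00985). The CYB5B calls were lost in 5 of 29 alternatives in shSETD2 (highest adjusted p = 0.173) and in 8 of 29 in shMETTL14 cells (highest adjusted p = 0.521). Without shCtrl replicate 1 or 2 at 0 h the values were -0.027 and -0.024 in shSETD2 and -0.019 and -0.016 in shMETTL14 cells. Without shMETTL14 replicate 1 or 2 at 0 h they were -0.021 and -0.013 in shMETTL14 cells. The median of all genes moved as well in these settings. It went from -0.013 to 0.019 and 0.018 in shSETD2 and from -0.003 to between 0.019 and 0.021 in shMETTL14 cells. NR1H2, which encodes the oxysterol receptor LXR beta, had a lower slope in shMETTL14 cells (-0.092, adjusted p = 0.0339), a call lost in 14 of 29 alternatives. The count of NR1H2 is uncertain because of an overlap on the opposite strand.

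Over the 12 group means the members moved together to different degrees. Pearson's r between pairs ran from 0.42 (ACSS2 and ACACA) to 0.987 (FADS1 and FADS2, which share a locus). FADS1 and ACLY were closest to the mean profile of the other members (r = 0.993 and 0.984), and ACSS2, ACACA and ELOVL6 farthest (0.739, 0.831 and 0.832). Among 9986 other genes the mean member profile was most like those of SLC31A1 (r = 0.993), SERPINC1 (0.991), CES1 (0.990), MGST1 (0.988) and FDPS (0.988). The points share the same libraries and the same scaling, so these values are a description.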

How the data were processed

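RNA-seq of 24 HepG2 libraries was used, grouped by the sample titles. Gene counts were taken as the authors deposited them; the tools named in the submitters' processing notes are cutadapt, TopHat and HTSeq 0.6.1p1, with GRCh37 as the build. The sources used here give no settings, annotation release or strand use. RPKM values were deposited by the authors in the same table, and 100% of them matched counts scaled by exon length and library total within a relative tolerance of 0.0001. A second deposited table gives a score per gene and line, a half-life in hours that the authors computed, per the design text, from the treated times relative to 0 h. The labels mention ERCC spike-ins, and the table holds 0 such entries, so all levels are relative. Replicates are called biological in the design text, but how cultures were separated is not given, so p-values measure the spread between these libraries.

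The test of the counts was that of edgeR 4.0.16, run in R 4.3.3 (two-sided quasi-likelihood F test with robust fitting, TMM and filterByExpr) in 1 model of 12 group means with 12 residual degrees of freedom over 14887 genes, with Benjamini-Hochberg adjustment over all of them at 0.05. Slopes are least-squares slopes of group means on hours. Alternatives used DESeq2 1.42.0, limma 3.58.1 on log2(RPKM + 0.1) and log2(RPKM + 1), other scaling and filters, and left-out libraries and times. The script was tested on simulated data. Members, gene lists and tests were chosen with earlier results of these data known. Named genes are the 10 members in every comparison, SREBF1, MLXIPL and INSIG1 at 0 h, up to 2 called genes with the smallest p per role of the wider pathway in the 0 h comparisons with shCtrl and the slope differences, and the 5 genes most like the mean member profile. A gene of the wider pathway that this rule names is not reported here. Limits from a count of 0 cover counting error only. The SE was derived from the edgeR test, as the absolute log2 value over the square root of F. The 95% intervals were built from this SE with a t quantile. They are approximate and include the fit's estimate of the spread between libraries.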

Additional observations from a re-analysis of the deposited data

Results flagged for a closer look

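A difference in slope between a knockdown line and shCtrl marked 5 results. ELOVL6 had a slope difference of -0.080 log2 per h in shSETD2 (SE 0.0179, edgeR adjusted p = 0.00739) and of -0.123 in shMETTL14 cells (SE 0.0198, adjusted p = 0.000363), both against shCtrl, the first lost in 5 of 29 alternatives. CYB5B had -0.057 in shSETD2 (SE 0.00927, adjusted p = 0.000477) and -0.040 in shMETTL14 cells (SE 0.00929, adjusted p = 0.00985), calls lost in 5 and 8 of 29 alternatives, among them leaving out either shCtrl library at 0 h. NR1H2 had -0.092 in shMETTL14 cells (SE 0.0252, adjusted p = 0.0339), a call lost in 14 of 29. Every group held 2 libraries, too few for a check of single libraries within a group.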

How the results depend on the processing

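All 9 members were called higher at 0 h in shSETD2 over shMETTL14 under every alternative run. Slope differences moved most. In shSETD2 the 1 member called became 2 with no filter on low counts, 3 with the replicate block, 0 with only the libraries compared or without the 1 h libraries, and 6 without the 6 h libraries; leaving out 1 library gave 0 to 5. In shMETTL14 it became 2 with library size alone, with the replicate block and with only the libraries compared, 3 with limma on log2(RPKM + 0.1) or log2(RPKM + 1), 4 after removal of a GC trend (an alternative chosen after seeing the data, as all GC values here) and 5 without the 6 h libraries. Over all genes the 1182 called in shSETD2 ranged from 478 to 3827 and the 775 called in shMETTL14 from 463 to 2467. The shares of all genes called moved too. In shSETD2 7.94% became 6.48% with no filter, 13.5% with the block and 5.18% with only the libraries compared. It was 4.81% without the 1 h and 6.96% without the 6 h libraries. In shMETTL14 5.21% became 8.21% with library size alone, 7.36% with the block and 16.8% with only the libraries compared. It was 8.02% and 8.66% with limma, 12.7% after removal of a GC trend and 5.4% without the 6 h libraries. The main fit did not pair samples by replicate number. Differences between replicate 1 and replicate 2 were in part shared between groups. Over 66 pairs of groups their r ran from -0.206 to 0.666, with a median of 0.176, and 36 pairs exceeded 0.1. With the replicate block the genes called for a slope difference rose from 1182 to 2015 in shSETD2 and from 775 to 1096 in shMETTL14. The block added FADS1 in both lines and ELOVL5 in shSETD2 and took away no call among the members; it also called MLXIPL higher at 0 h in shSETD2 (edgeR adjusted p = 0.0411), as did only the libraries compared and removal of a GC trend. The cause of the changes below was not tested.

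The sign of small slope differences, none called before, turned in many settings. With library size alone, limma on log2(RPKM + 0.1) and limma on log2(RPKM + 1), ACLY in shMETTL14 became -0.00039, -0.00032 and -0.00032, ACSS2 in shSETD2 0.00031, 0.00073 and 0.007, and FADS2 in shSETD2 0.003, 0.002 and 0.004. With the same settings 2 called slopes turned: ELOVL5 in shSETD2 (-0.010, -0.010 and -0.010) and ELOVL6 in shCtrl (-0.013, -0.012 and -0.010). With RLE factors and DESeq2, ACSS2 in shSETD2 became 0.010 and 0.010, FADS2 in shSETD2 0.013 and 0.013, SCD in shSETD2 0.005 and 0.004, and ELOVL5 in shMETTL14 0.005 and 0.005. With a stricter filter ELOVL5 in shMETTL14 became 0.004. After removal of a GC trend ELOVL5 in shMETTL14 became 0.007, FASN in shSETD2 -0.013, SCD in shSETD2 0.004, the ELOVL6 slope in shSETD2 0.032 (called, adjusted p = 0.000173) and the 0 h log2 fold change of SREBF1 in shSETD2 0.13 (called, adjusted p = 0.0243). With only the libraries compared, shSETD2 gave 0.008 (ACACA), 0.022 (ACSS2), 0.005 (FADS1), 0.024 (FADS2) and 0.016 (SCD), and shMETTL14 0.005 (ACACA), 0.003 (ACSS2), 0.021 (ELOVL5), 0.007 (FASN) and 0.015 (SCD). Without the 1 h libraries, shSETD2 gave 0.006 (ACACA), 0.016 (ACSS2), 0.027 (FADS2) and 0.013 (SCD), and shMETTL14 0.011 (ACACA), 0.00012 (ACSS2), 0.017 (ELOVL5), 0.013 (FASN) and 0.014 (SCD). Without the 3 h libraries ACSS2 in shSETD2 became 0.00076 and ELOVL5 in shMETTL14 0.006. Without the 6 h libraries ACLY became -0.066 in shSETD2 and -0.047 in shMETTL14, FASN in shSETD2 -0.051 and the ELOVL6 slope in shSETD2 0.007. Leaving out 1 library gave, in shSETD2, -0.029 to 0.011 (ACACA), -0.007 to 0.043 (ACLY), -0.017 to 0.030 (ACSS2), -0.028 to 0.007 (FADS1), -0.033 to 0.026 (FADS2), -0.029 to 0.046 (FASN) and -0.018 to 0.019 (SCD). In shMETTL14 it gave -0.026 to 0.008 (ACACA), -0.024 to 0.011 (ACSS2), -0.016 to 0.025 (ELOVL5), -0.023 to 0.009 (FASN) and -0.011 to 0.018 (SCD).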
